A study of Arabidopsis thaliana with 18 samples.

Results

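The comparison set rosettes of the med5a-1 med5b-1 double mutant, called med5 here, against wild-type rosettes of Arabidopsis thaliana, and so measured the loss of MED5 in a plant that carries no other mutation of the study. Its members were the 3 med5 libraries and the 3 wild-type libraries, 6 of the 18 libraries of the series, and every gene of the count table. All plants were of the Columbia-0 ecotype and 18 days old, grown under long days and harvested at the same time of day. Each library came from 5 pooled rosettes, and the series describes biological triplicates. The other 12 libraries came from ref5-1 and ref2-1, known as mutants of the glucosinolate genes CYP83B1 and CYP83A1, and from triple mutants that join the 2 med5 alleles to either of them (ref5-1 med5 and ref2-1 med5). They entered the fit and served as further backgrounds in which MED5 was lost. Both med5 alleles are known as T-DNA insertions, and counts over a whole gene do not tell an intact transcript from a truncated one.

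Mediator is a large protein complex that carries signals from transcription factors to RNA polymerase II. MED5, which corresponds to MED33 in the plant nomenclature, sits in the tail of the complex and is encoded by MED5A and MED5B, also known as RFR1 and REF4. In Arabidopsis it is known as a brake on phenylpropanoid synthesis, the pathway that turns phenylalanine into sinapate esters, lignin and flavonoids. Its loss is known to raise phenylpropanoid products, and it also restores growth and lignin in some lignin-deficient mutants.

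The 6 libraries held 21389804 to 27196771 gene counts, and levels are given as CPM, read counts scaled to a common library size. On the leading principal component, which held 42.3% of the variance among the 6 libraries, the genotypes separated. Med5 replicate 3 was the most distant med5 library on that component, and wild-type replicate 3 stood apart on the next. By pairwise likeness, wild-type replicate 3 again stood apart (r of 0.986 and 0.987 with the other wild-type libraries, which reached 0.993 with each other), while in med5 replicates 2 and 3 were the least alike (0.984, against 0.989 for either with replicate 1). The 17 leaf markers, which encode photosynthesis proteins, summed to 80147 to 85185 CPM in wild type and to 83866 to 92084 CPM in med5, so the labelled tissue was clear in every library. The summed levels of root markers were 96.0 to 155.6 CPM in wild type and 62.7 to 110.3 CPM in med5, nearly all of it from BGLU23, while EXPA7, CASP1, MYB36, COBL9 and IRT1 were at or near 0. The sums of flower and seed markers were low, at 2.35 to 3.07 CPM in wild type and 3.52 to 7.01 CPM in med5. The 3 tested members all had positive changes, with a median log2 fold change of 1.02. None was called by edgeR, and 3 had an unadjusted edgeR p under 0.05, beside 2442 of all 19897 tested genes. In whole rosettes, fewer cells of a type and less RNA per cell cannot be told apart.

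The targeted genes were read first. MED5B (AT2G48110) stood at 25.6, 23.5 and 24.3 CPM in the wild-type libraries and at 6.31, 6.67 and 7.06 CPM in the med5 libraries. Every med5 library was thus far below every wild-type library. The log2 fold change was -1.87 ± 0.091 (SE; edgeR quasi-likelihood test with Benjamini-Hochberg adjustment, adjusted p = 3.11e-10). MED5A (AT3G23590) stood at 52.2, 50.8 and 45.4 CPM in wild type and at 32.1, 33.8 and 29.0 CPM in med5. The genotypes did not overlap, but the loss was much smaller than that of MED5B, at -0.65 ± 0.092 (edgeR adjusted p = 0.00139), and it left 63.9% of the wild-type level. MED5A shares part of its annotated span with AT3G23600 on the same strand. Both genes kept their call when any single library of the pair was left out.

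Both genes were also lower in the triple mutants. MED5B stood at 6.91 to 7.79 CPM in ref5-1 med5 and at 7.61 to 8.47 CPM in ref2-1 med5, and MED5A at 37.3 to 40.8 and 23.4 to 29.4 CPM. Of the other 35 measured Mediator subunit genes, 0 passed the test in edgeR or DESeq2. An unadjusted edgeR p under 0.05 held for 2 of them, beside 2442 of all 19897 tested genes. The median log2 fold change of these subunit genes was -0.06, beside -0.0017 for all tested genes. Their changes ran from -0.45 for MED21 to 0.19 for MED25.

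The genes beside the insertions were examined by their order on the chromosome. Of 15 tested neighbours of MED5A, 0 were called by edgeR. Among 13 tested neighbours of MED5B, 1 was called, the gene next to it. PAC (AT2G48120, PALE CRESS), which is needed for chloroplast development, stood at 39.3, 41.4 and 40.5 CPM in wild type and at 26.7, 23.7 and 23.2 CPM in med5. The groups were well apart, and the log2 fold change was -0.72 ± 0.086 (edgeR adjusted p = 0.000194). PAC was also lower on loss of MED5 in ref5-1, by -0.93, and in ref2-1, by -0.88.

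Of 19897 genes tested, 155 (0.779%) were called at an adjusted p under 0.05, 67 of them higher in med5 (0.337%) and 88 lower (0.442%). A further measure, an unadjusted edgeR p under 0.05, held for 2442 of the 19897 genes. List counts of this measure are to be read beside that share. The median size of the log2 change was 0.71 for genes called higher and 0.96 for genes called lower, and 21 of the former and 43 of the latter changed by more than 2-fold. In all 155 genes the 3 med5 libraries lay on one side of the 3 wild-type libraries, as they did in 10.3% (higher) and 10% (lower) of all tested genes. The number of calls depended on single libraries. It was 52 when wild-type replicate 1 was left out, 78 without replicate 2, 76 without med5 replicate 1 and 66 without med5 replicate 3, and 45 of the 155 genes were called in all 6 fits that left out a library of the pair. Without ref5-1 replicate 1, a library outside the pair, 229 genes were called. DESeq2 called 494 genes, which included the 155.

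**Figure D1:**
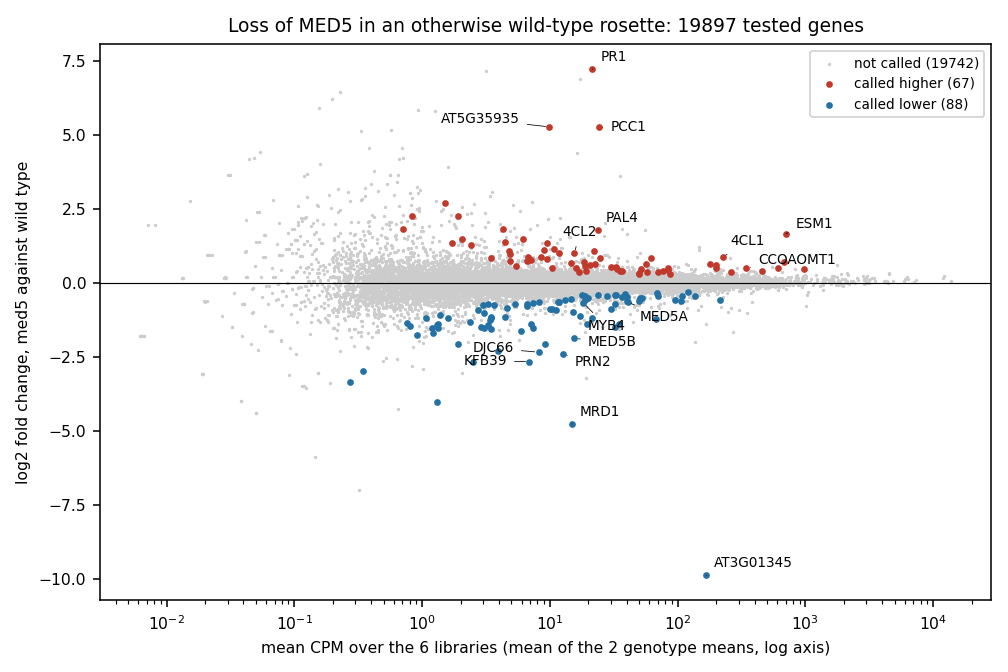
Log2 fold change of each tested gene in med5 against wild type (vertical axis) over its mean level in CPM (horizontal log axis); red and blue points are the 67 genes called higher and the 88 called lower, grey points the rest. The labelled genes include the targets MED5A and MED5B, PR1 at the top (7.21) and AT3G01345 at the bottom (-9.86).

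Besides MED5B and AT3G01345, the genes called lower with the smallest adjusted p-values were PRN2, DJC66 and KFB39. KFB39 (AT2G44130) encodes an F-box protein with Kelch repeats that marks phenylalanine ammonia-lyase, the entry enzyme of the pathway, for degradation. It stood at 11.4, 12.1 and 12.3 CPM in wild type and at 1.79, 1.72 and 2.21 CPM in med5. All med5 libraries lay far below the tight wild-type group, with a log2 fold change of -2.65 ± 0.17 (edgeR adjusted p = 2.26e-08). An annotated gene on the opposite strand, AT2G44140, overlaps KFB39, and the strand setting of the counting is not given.

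Other F-box genes of this kind moved less. KFB50, a second gene for a protein that targets phenylalanine ammonia-lyase, stood at 54.2, 58.1 and 66.6 CPM in wild type and at 31.0, 48.8 and 39.7 CPM in med5. Its libraries did not overlap, but the log2 fold change of -0.58 ± 0.15 did not pass the test (edgeR adjusted p = 0.0815). KFB01 (0.54), KFB20 (-0.17) and KFBCHS (-0.19), the last a gene for a protein that targets chalcone synthase, were not called either. KFB39 was the 1 gene of the 5 called by edgeR, which called 0.442% of all tested genes lower, and DESeq2 called 2.

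MYB4 (AT4G38620) encodes a repressor of phenylpropanoid genes, in particular of the cinnamate hydroxylase gene C4H. Its levels were 22.3, 20.5 and 24.8 CPM in wild type and 14.9, 13.4 and 13.98 CPM in med5. The med5 values sat close together below all wild-type values, at -0.68 ± 0.097 (edgeR adjusted p = 0.00142). Of 11 tested MYB genes of phenylpropanoid and secondary wall control, MYB4 was the only one called by edgeR, and DESeq2 called 3. EdgeR called 0.442% of all tested genes lower. MYB7, a close relative of MYB4, ran from 2.40 to 4.40 CPM in wild type and from 1.24 to 2.18 CPM in med5, with a log2 fold change of -1.09 ± 0.30 (edgeR adjusted p = 0.110). MYB43 (0.78) and MYB63 (1.34), which belong to the secondary wall activators, had non-overlapping higher libraries but no call.

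DJC66 (AT3G13310) encodes a small protein with a J-domain, the part by which co-chaperones engage Hsp70. It stood at 12.7, 12.6 and 15.6 CPM in wild type and at 2.30, 2.98 and 2.80 CPM in med5. No med5 library came near the wild-type range, and the log2 fold change was -2.34 ± 0.14 (edgeR adjusted p = 4.50e-09). J11, a chloroplast J-protein gene, had levels of 39.6, 39.0 and 45.6 CPM against 22.1, 36.1 and 28.5 CPM. Its change of -0.52 ± 0.15 did not pass the test (edgeR adjusted p = 0.135), and the other 3 tested genes of this group, J8, J20 and DJC24, were not called by edgeR.

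PRN2 (AT2G43120) encodes a pirin of the cupin superfamily that is known to affect lignin composition. It stood at 21.9, 21.2 and 21.3 CPM in wild type and at 3.88, 4.53 and 3.68 CPM in med5. The libraries of each genotype were close to each other and far from the other genotype, with a log2 fold change of -2.41 ± 0.13 (edgeR adjusted p = 2.89e-09). KFB39, DJC66, PRN2 and MYB4 were each called in all 6 fits that left out 1 library.

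**Figure D2:**
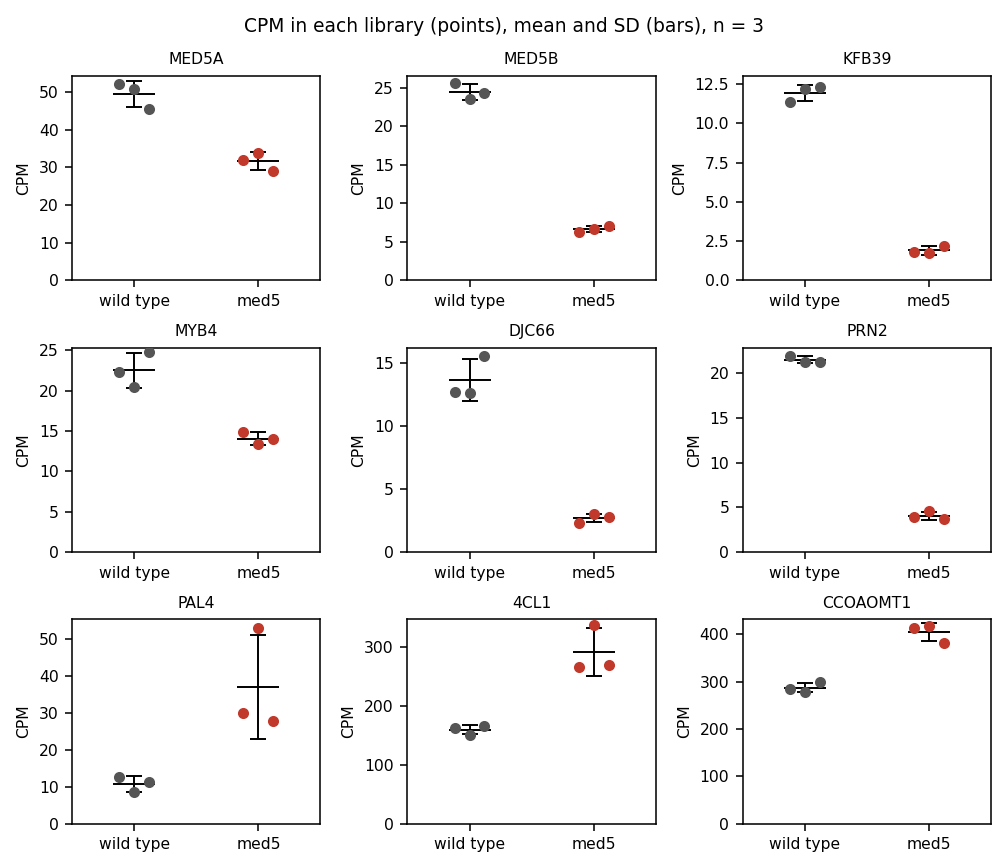
CPM of 9 genes in each of the 3 wild-type (grey) and 3 med5 (red) libraries, with the mean and SD of each genotype as black bars; every axis starts at 0. The med5 libraries lie below wild type for MED5A, MED5B, KFB39, MYB4, DJC66 and PRN2 and above it for PAL4, 4CL1 and CCOAOMT1.

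Phenylpropanoid enzyme transcripts were the list with the most calls. Of 20 enzyme genes, 6 were called higher and 0 lower, where 0.337% of all tested genes were called higher. The 6 genes cover the entry of the pathway (PAL4, C4H), its activation by coenzyme A (4CL1, 4CL2) and the methylation and ester steps toward lignin (CCOAOMT1, CSE). In 19 of the 20 the change was positive, in 12 the med5 libraries lay wholly above wild type (10.3% of all tested genes did), and the median log2 fold change was 0.32. Left out in turn, wild-type replicates 1 and 2 and med5 replicates 1 and 3 each left 4 called genes, and DESeq2 called 10. Over the 6 fits that left out a library of the pair, PAL4, 4CL1, 4CL2 and CCOAOMT1 were called in all. C4H was called in 2 of these fits and CSE in 1.

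PAL4 (AT3G10340) encodes a phenylalanine ammonia-lyase, which takes ammonia off phenylalanine to give cinnamate. It stood at 12.7, 8.47 and 11.2 CPM in wild type and at 30.1, 53.3 and 27.8 CPM in med5. The med5 libraries were spread more widely than wild type but all lay above it, and the log2 fold change was 1.78 ± 0.26 (edgeR adjusted p = 0.00312). With only the 6 compared libraries in the fit, the adjusted p of PAL4 was 0.112. PAL1 stood at 199.97, 223.4 and 297.5 CPM against 337.3, 351.7 and 338.1 CPM, again without overlap. Its log2 fold change of 0.51 ± 0.13 did not reach the threshold (edgeR adjusted p = 0.0761), and PAL2 (0.29) and PAL3 (0.13) were not called.

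C4H (AT2G30490) encodes cinnamate 4-hydroxylase, the enzyme after phenylalanine ammonia-lyase. Its levels were 215.2, 226.0 and 241.6 CPM in wild type and 303.0, 290.3 and 291.1 CPM in med5. The rise was small and alike in the med5 libraries, at 0.37 ± 0.077 (edgeR adjusted p = 0.0263). The call held in only 2 of the 6 fits that left out a library of the pair.

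4CL1 (AT1G51680) and 4CL2 (AT3G21240) encode 4-coumarate:CoA ligases, which activate hydroxycinnamates for the monolignol branch. 4CL1 stood at 162.4, 150.3 and 165.3 CPM in wild type and at 266.1, 337.7 and 270.1 CPM in med5, a log2 fold change of 0.87 ± 0.095 (edgeR adjusted p = 5.30e-05). 4CL2 stood at 9.73, 9.94 and 11.6 CPM against 19.7, 24.5 and 17.9 CPM, a log2 fold change of 0.99 ± 0.11 (edgeR adjusted p = 5.30e-05). In both genes every med5 library was well above wild type. 4CL1 is overlapped by an annotated gene on the opposite strand, AT1G51670. 4CL3, the isoform known for its part in flavonoid synthesis, showed a log2 fold change of -0.0063 ± 0.18 with overlapping libraries, and 4CL5 was not called (0.43).

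CCOAOMT1 (AT4G34050) encodes a caffeoyl-CoA O-methyltransferase of lignin synthesis. It stood at 284.5, 278.8 and 298.2 CPM in wild type and at 413.2, 418.2 and 381.8 CPM in med5. The groups did not come near each other, and the log2 fold change was 0.49 ± 0.073 (edgeR adjusted p = 0.00183). CSE, the caffeoyl shikimate esterase, rose from 30.3, 31.2 and 33.8 CPM to 41.0, 43.6 and 40.5 CPM. Its log2 fold change was 0.39 ± 0.082 (edgeR adjusted p = 0.0280), with the call kept in only 1 of the 6 fits that left out a library of the pair. HCT, whose enzyme makes the shikimate esters on which CYP98A3 acts, had a log2 fold change of 0.33 ± 0.076 and missed the threshold (edgeR adjusted p = 0.0521), as did CYP98A3 (0.32) and FAH1 (0.35), the ferulate 5-hydroxylase gene. The genes for the last steps to monolignols, CCR1 (0.097), CAD4 (0.0029) and CAD5 (0.25), had overlapping libraries.

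**Figure D3:**
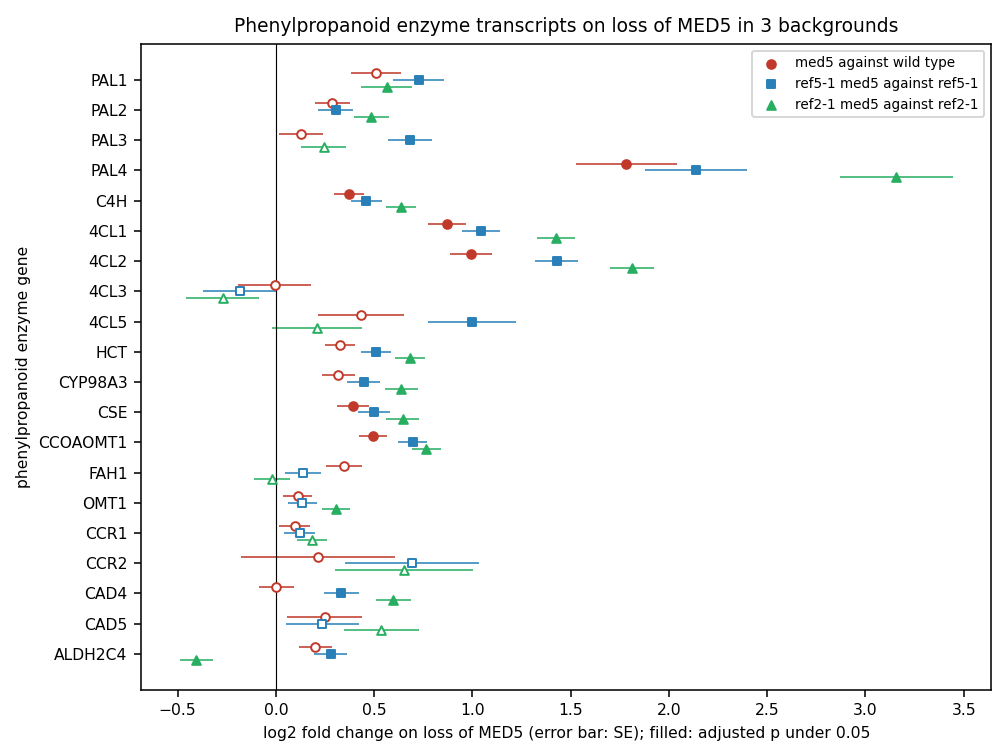
Log2 fold change on loss of MED5 (horizontal axis, error bars are SE) of the 20 phenylpropanoid enzyme genes (vertical axis) in an otherwise wild-type plant (red circles), in ref5-1 (blue squares) and in ref2-1 (green triangles); filled symbols have an adjusted p under 0.05. In med5 against wild type 6 genes are filled, all to the right of 0, with PAL4 the farthest right (1.78).

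Genes upstream and in the side branches of the pathway gave 0 calls in edgeR and in DESeq2. An unadjusted edgeR p under 0.05 held for 3 of 23 genes, beside 2442 of all 19897 tested genes. The 17 shikimate and phenylalanine synthesis genes had a median log2 fold change of 0.043. The 6 tested genes of sinapate ester synthesis had a median of -0.13, with SNG1, whose enzyme makes sinapoylmalate, at 466.4, 499.2 and 408.3 CPM in wild type and 397.4, 414.0 and 418.5 CPM in med5. Those libraries overlapped.

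Anthocyanin genes were mostly lower without passing the edgeR test. Of 13 genes, 11 had negative changes and the median log2 fold change was -0.61. The unadjusted edgeR p was under 0.05 in 7, beside 2442 of all 19897 tested genes, and DESeq2 called 2 of the 13 lower. In 6 of them the med5 libraries lay wholly below wild type, where 10% of all tested genes did so. DFR, the reductase that opens the late anthocyanin branch, stood at 54.8, 72.7 and 147.9 CPM in wild type and at 57.9, 45.7 and 50.0 CPM in med5, so the high value was confined to replicate 3 and the log2 fold change of -0.84 ± 0.35 was not called (edgeR adjusted p = 0.340). MYBL2, a repressor of the branch, was not high in that library, with 38.6, 45.0 and 38.1 CPM against 21.6, 31.8 and 26.0 CPM, but its change of -0.61 ± 0.18 was also not called (edgeR adjusted p = 0.131). The early flavonoid and flavonol genes, 13 in number, had a median of -0.21 and 0 calls in edgeR and DESeq2, with 2 at an unadjusted p under 0.05.

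Glucosinolate genes, the pathway hit in ref5-1 and ref2-1, gave 1 call in med5. Of 29 aliphatic glucosinolate genes, edgeR called CYP79F2 higher, as it did 0.337% of all tested genes, and DESeq2 called 3. An unadjusted edgeR p under 0.05 held for 7, 3 higher and 4 lower, beside 2442 of all 19897 tested genes. The log2 fold changes of the list ran from -0.60 to 0.94, with a median of -0.021. CYP79F2 (AT1G16400), whose enzyme turns chain-elongated methionine into aldoximes, stood at 10.1, 10.4 and 12.9 CPM in wild type and at 16.2, 15.9 and 21.6 CPM in med5. The libraries did not overlap and the log2 fold change was 0.68 ± 0.13 (edgeR adjusted p = 0.0159), but its near-identical neighbour CYP79F1 makes its count uncertain, and the call was lost without either of wild-type replicates 1 and 2 or without med5 replicate 3 (adjusted p = 0.0899 to 0.112). Of 15 indole glucosinolate genes and 15 sulfate uptake and assimilation genes, 0 were called by edgeR, 5 had an unadjusted p under 0.05 and DESeq2 called 1, with medians of 0.039 and -0.081.

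A gene of glucosinolate breakdown changed more. ESM1 (AT3G14210, EPITHIOSPECIFIER MODIFIER 1) favours isothiocyanates over nitriles as products of glucosinolate hydrolysis. It stood at 337, 305 and 373 CPM in wild type and at 1268, 909 and 1038 CPM in med5. Every med5 library exceeded every wild-type library more than 2-fold, and the log2 fold change was 1.66 ± 0.17 (edgeR adjusted p = 5.30e-05). On loss of MED5 in ref5-1 it rose from 597 to 891 CPM to 1102 to 1310 CPM (0.65, edgeR adjusted p = 0.0185). In ref2-1 it was not called, with 337 to 505 CPM with MED5 and 320 to 381 CPM without it (-0.38, edgeR adjusted p = 0.165).

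Salicylate defence transcripts had uneven levels from library to library in med5. All 20 measured genes of the list had positive changes, the median log2 fold change was 0.97, and in 10 the med5 libraries lay wholly above wild type, beside 10.3% of all tested genes. EdgeR called 1 of them, where it called 0.337% of all tested genes higher, and DESeq2 called 8. On loss of MED5 in ref5-1, edgeR called 8 higher and 0 lower (6.09% and 4.71% of all tested genes), with a median of 1.67. In ref2-1 it called 0 higher and 1 lower (4.65% and 4.26%), with a median of -0.45. Summed over the list, levels were 129.7 to 164.2 CPM in wild type and 172.3, 240.5 and 476.9 CPM in med5, lowest to highest. PR1 (AT2G14610), the standard marker of the salicylate response, stood at 0.159, 0.187 and 0.493 CPM in wild type and at 5.75, 14.05 and 109 CPM in med5. Replicate 3 of med5 stood far above the other med5 libraries, though all 3 exceeded wild type. The log2 fold change was 7.21 ± 1.45 (edgeR adjusted p = 0.0413), and the call was lost without wild-type replicate 1, 2 or 3 or without med5 replicate 3 (adjusted p = 0.0967 to 0.187).

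Other genes of the response were also highest in med5 replicate 3, but lowest in replicate 2 rather than in replicate 1. PCC1 (AT3G22231), a gene named for control by pathogens and the circadian clock, stood at 1.44, 0.862 and 1.40 CPM in wild type and at 44.3, 9.52 and 87.5 CPM in med5. Its log2 fold change was 5.25 ± 1.05 (edgeR adjusted p = 0.0413), lost without wild-type replicate 1, 2 or 3 or without med5 replicate 1 or 3 (adjusted p = 0.101 to 0.176). In ref2-1, which carries functional MED5, PCC1 stood at 21.4 to 75.4 CPM, and in ref2-1 med5 at 51.4 to 115 CPM. WRKY70, a transcription factor gene of salicylate signalling, stood at 12.8, 11.7 and 15.02 CPM against 32.9, 13.8 and 71.9 CPM and was not called (edgeR adjusted p = 0.203). WAK1, a cell wall receptor kinase gene induced by salicylate, stood at 13.2, 14.8 and 19.95 CPM against 50.7, 20.04 and 100.4 CPM and was not called (edgeR adjusted p = 0.144). In both, med5 replicate 3 was the highest library and med5 replicate 2 was near the wild-type range. What set these libraries apart was not tested.

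Of 17 jasmonate genes 16 had negative changes, with a median of -0.42, and 0 were called by edgeR, by DESeq2 or at an unadjusted p under 0.05. VSP2, a vegetative storage protein gene that marks the jasmonate response, stood at 173, 148 and 921 CPM in wild type and at 51.5, 123.5 and 220.6 CPM in med5. Wild-type replicate 3 alone was high, and the groups overlapped.

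Auxin, environment and cell type lists added 1 call in all. IAA5 (AT1G15580), an early auxin response gene, stood at 4.46, 3.22 and 3.68 CPM in wild type and at 2.26, 2.22 and 2.26 CPM in med5, a log2 fold change of -0.75 ± 0.16 (edgeR adjusted p = 0.0265). The groups were apart, but the call was lost without wild-type replicate 1 or any med5 replicate (adjusted p = 0.0627 to 0.168), and AT1G15570 overlaps the gene on the opposite strand. No other gene of the 14 auxin response genes passed in edgeR, which called 0.779% of all tested genes, and DESeq2 called 3. The lists for cold and abscisic acid, heat shock, iron and copper, sugar starvation, the circadian clock and flowering time held 65 tested genes, of which edgeR called 0 and DESeq2 1 and 12 had an unadjusted edgeR p under 0.05. Their medians ran from -0.25 to 0.24, the highest for flowering time. An unadjusted p under 0.05 held for 2442 of all 19897 tested genes and for 6 of the 12 tested flowering time genes, 5 higher and 1 lower. On loss of MED5 in ref2-1, edgeR called 4 flowering time genes higher and 0 lower (4.65% and 4.26% of all tested genes). In ref5-1 it called 2 higher and 1 lower (6.09% and 4.71%).

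The marker lists of cell types in the rosette held 0 calls in edgeR. Over all 19897 tested genes, 2442 had an unadjusted edgeR p under 0.05. All 15 tested xylem and secondary wall genes had positive changes, with a median of 0.23, 0 calls in edgeR and DESeq2 and 2 unadjusted p-values under 0.05, and their sums over the list were 183.9 to 233.2 CPM in wild type and 236.8 to 249.3 CPM in med5. Of 8 stomatal lineage genes 7 had negative changes, with a median of -0.28, 0 calls in edgeR and DESeq2 and 3 unadjusted p-values under 0.05, and the sums were 100.3 to 103.4 CPM in wild type and 87.9 to 94.4 CPM in med5. The part of these levels in the calls above was not tested.

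The next genes were named by the size or the adjusted p of their change and were in none of the gene lists. Among those higher, AT1G64380, which encodes an ERF/AP2 transcription factor, stood at 1.63, 1.65 and 2.35 CPM in wild type and at 5.97, 9.01 and 4.95 CPM in med5 (log2 fold change 1.82 ± 0.24, edgeR adjusted p = 0.000800). AT1G30760, which encodes a berberine bridge enzyme-like oxidoreductase, stood at 0.518, 0.862 and 0.607 CPM against 4.05, 2.60 and 2.84 CPM (2.24 ± 0.26, edgeR adjusted p = 0.000142). AT2G46630, annotated as a serine/arginine repetitive matrix protein, stood at 15.9, 19.4 and 17.64 CPM against 26.4, 27.9 and 27.3 CPM (0.62 ± 0.081, edgeR adjusted p = 0.000590). All 3 were called whichever library was left out. AT1G68600, of the malate transporter family, rose from 9.61, 11.9 and 21.1 CPM to 28.1, 31.7 and 31.1 CPM (1.09 ± 0.22, edgeR adjusted p = 0.0330), but its call held in 1 of the 6 fits and was lost without wild-type replicate 1 or 2 or any med5 replicate (adjusted p = 0.0705 to 0.138). It was not called on loss of MED5 in ref5-1 (-0.57) or ref2-1 (0.65).

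Among those lower, AT3G55240, a gene whose overexpression is known to cause pseudo-etiolation in light, stood at 34.0, 28.9 and 25.9 CPM in wild type and at 12.4, 12.96 and 13.3 CPM in med5. The med5 libraries were nearly equal, and the log2 fold change was -1.20 ± 0.12 (edgeR adjusted p = 2.85e-05). The long non-coding RNA AT5G53048, which lies opposite AT5G53050, stood at 9.77, 5.06 and 4.67 CPM against 1.07, 1.55 and 1.32 CPM (-2.30 ± 0.34, edgeR adjusted p = 0.00249). The transcribed pseudogene AT3G30122 stood at 11.2, 8.89 and 6.71 CPM against 3.20, 2.85 and 2.55 CPM (-1.64 ± 0.22, edgeR adjusted p = 0.000756). AT3G30122 was also low in ref2-1, at 2.56 to 3.04 CPM, and was not called there on loss of MED5 (-0.57). AT3G55240, AT5G53048 and AT3G30122 were called in all 6 fits that left out a library.

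Lower genes with less stable calls included 2 of the lipid-transfer and 2S albumin superfamily, AT4G22517 (-2.05 ± 0.42, edgeR adjusted p = 0.0395) and AT1G62510 (-1.50 ± 0.24, edgeR adjusted p = 0.00866). AT4G22517 stood at 10.96, 16.0 and 17.41 CPM in wild type and 2.00, 6.08 and 2.55 CPM in med5, and its call was lost without any wild-type replicate or without med5 replicate 1 or 3 (adjusted p = 0.0763 to 0.178). AT1G62510 stood at 60.8, 44.7 and 38.7 CPM against 16.2, 21.7 and 13.1 CPM, and its call was lost without med5 replicate 1 or 3 (adjusted p = 0.0527 to 0.0540). Both were lower in every med5 library. AT3G55290, a dehydrogenase-like gene, stood at 4.07, 3.56 and 7.78 CPM against 1.62, 1.68 and 1.91 CPM (-1.57 ± 0.34, edgeR adjusted p = 0.0395), and its call was lost without wild-type replicate 1 or 3 or any med5 replicate (adjusted p = 0.0763 to 0.155).

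The loci AT3G01345, AT5G35935 and MRD1, singled out with these data known, had extreme values in the comparison and also differed between wild type and at least 1 single mutant with functional MED5. AT3G01345, an uncharacterized protein gene, stood at 370, 337 and 299 CPM in wild type and at 0.554, 0.252 and 0.245 CPM in med5. Its log2 fold change was -9.86 ± 0.22 (edgeR adjusted p = 2.29e-15), but it was also near 0 in ref5-1 (0.362 to 0.497 CPM) and in ref2-1 (0.227 to 0.631 CPM), which carry functional MED5. AT5G35935, an annotated pseudogene, stood at 0.638, 0.487 and 0.379 CPM in wild type and at 19.2, 21.0 and 17.9 CPM in med5 (5.26 ± 0.22, edgeR adjusted p = 7.96e-11). It was also far above wild type in ref5-1 (13.5 to 23.4 CPM) and in ref2-1 (13.004 to 16.3 CPM).

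The third locus, MRD1 (AT1G53480), is a gene of unknown function named for its low level in a methionine-accumulating mutant. It stood at 28.6, 27.9 and 29.7 CPM in wild type and at 1.45, 1.51 and 0.0981 CPM in med5 (-4.76 ± 0.41, edgeR adjusted p = 4.62e-05). In ref5-1 it was low as well (0.0803 to 0.643 CPM), while ref2-1 held 30.1 to 37.0 CPM and ref2-1 med5 9.45 to 16.3 CPM. HEI10, which overlaps MRD1 on the opposite strand, stood at 4.58, 4.35 and 3.79 CPM in wild type and at 1.62, 1.64 and 1.23 CPM in med5. How reads over the stretch shared by the 2 genes were counted cannot be told without the strand setting.

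The same loss of MED5 was measured in 2 further backgrounds that share no library with med5 or wild type. In ref5-1 it changed 2149 genes (10.8% of those tested; 6.09% higher and 4.71% lower) and in ref2-1 1773 genes (8.91%; 4.65% higher and 4.26% lower), against 155 in the otherwise wild-type plant. Of the 155 genes, 148 (95.5%) changed in the same direction in ref5-1, 93 (60%) were called the same way and 0 the opposite way. In ref2-1 131 (84.5%) changed in the same direction, 69 (44.5%) were called the same way and 3 the opposite way. In all, 52 genes were called the same way in all 3 backgrounds, 24 higher and 28 lower, and 45 were called the same way in neither other background. The count shared with ref5-1 ranged from 37 (without wild-type replicate 1) to 117 (without med5 replicate 2), and fell to 47, 52 and 44 when wild-type replicate 2, med5 replicate 1 and med5 replicate 3 were left out. With ref2-1 it fell to 32, 39, 42 and 41 without the same 4 libraries and to 43 without ref2-1 med5 replicate 1.

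**Figure D4:**
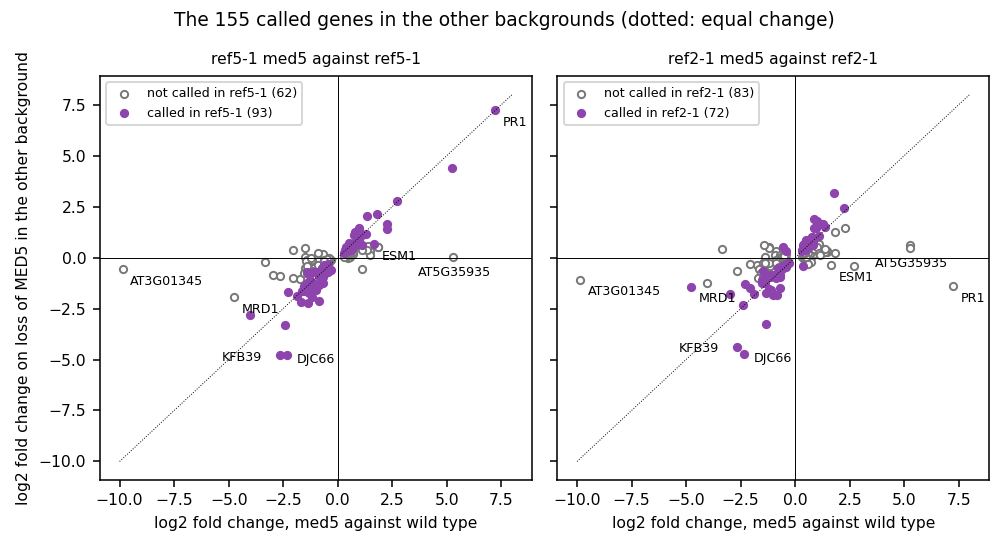
Log2 fold change of the 155 called genes in med5 against wild type (horizontal axis) and on loss of MED5 in ref5-1 (left) or ref2-1 (right, vertical axis); filled points were also called there in either direction, and the dotted line marks equal change. KFB39 and DJC66 lie below the line in both panels, AT3G01345 and AT5G35935 lie near 0 on the vertical axis in both, and PR1 lies on the line in ref5-1 (7.21) and below 0 in ref2-1 (-1.39).

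The difference in the effect of MED5 between backgrounds was tested for each gene. It was called for 18 genes (0.0905%; 0.0302% with a positive and 0.0603% with a negative difference) in ref5-1, of which 6 were among the 155. In ref2-1 it was called for 149 genes (0.749%; 0.457% positive and 0.292% negative), of which 28 were among the 155. The ref5-1 count ranged from 10 to 33 when single libraries of the genotypes compared were left out. It was 10 without wild-type replicate 1, ref5-1 replicate 3 or ref5-1 med5 replicate 3. It was 11 without ref5-1 med5 replicate 1 and 33 without wild-type replicate 3. The ref2-1 count ranged from 38 (without ref2-1 med5 replicate 2) to 475 (without med5 replicate 2), with 251 without wild-type replicate 3 and 40 to 77 without wild-type replicate 1 or 2, ref2-1 replicate 1, med5 replicate 1 or 3 or ref2-1 med5 replicate 1.

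KFB39 and DJC66 were much higher in ref5-1 and ref2-1 than in wild type and low in every genotype without MED5, where the libraries of ref2-1 med5 lay above those of med5. KFB39 stood at 11.4 to 12.3 CPM in wild type, 52.5 to 72.4 CPM in ref5-1 and 63.6 to 68.9 CPM in ref2-1, but at 1.92 to 2.67 CPM in ref5-1 med5 and 2.34 to 3.897 CPM in ref2-1 med5, beside 1.72 to 2.21 CPM in med5. The MED5 effect was larger by -2.12 ± 0.25 (log2) in ref5-1 than in wild type (edgeR adjusted p = 0.000327) and by -1.71 ± 0.24 in ref2-1 (edgeR adjusted p = 0.00245). DJC66 stood at 56.7 to 69.6 CPM in ref5-1 and 108 to 118 CPM in ref2-1, and at 2.02 to 2.59 and 3.74 to 5.02 CPM in the triple mutants. The differences in its MED5 effect were -2.45 ± 0.20 (edgeR adjusted p = 1.90e-06) and -2.41 ± 0.19 (edgeR adjusted p = 1.87e-06).

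MYB4 showed the same order. It stood at 31.9 to 40.9 CPM in ref5-1 and 39.6 to 44.6 CPM in ref2-1, above wild type, and at 14.4 to 15.4 and 14.6 to 16.1 CPM in the triple mutants, next to the 13.4 to 14.9 CPM of med5. The larger effect in ref2-1 was called (-0.81 ± 0.14, edgeR adjusted p = 0.00982), and that in ref5-1 was not. J11, not called in med5 against wild type, had a larger MED5 effect in ref5-1 (-1.30 ± 0.21, edgeR adjusted p = 0.0250) and in ref2-1 (-1.09 ± 0.21, edgeR adjusted p = 0.0252).

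Of the 20 phenylpropanoid enzyme genes, 14 were called higher and 0 lower on loss of MED5 in ref5-1, against the 6.09% called higher among all tested genes. In ref2-1 12 were called higher and 1 lower, with 4.65% called higher among all tested genes. The medians were 0.48 and 0.58, beside 0.32 in the otherwise wild-type plant. The 6 genes called in med5 were called in both. Of these, 4CL2 had a larger effect in ref2-1 by 0.82 ± 0.15 (edgeR adjusted p = 0.0187), where its level with MED5 was 5.62 to 5.99 CPM and without it 19.7 to 21.1 CPM. PAL4 stood at 7.24 to 10.8 CPM in ref5-1 and 2.36 to 4.81 CPM in ref2-1 and at 37.7 to 44.2 and 27.1 to 35.6 CPM in the triple mutants, and no difference in its MED5 effect was called. Anthocyanin genes, of which edgeR called 0 in med5, were called lower in 11 of 13 on loss of MED5 in ref5-1 and in 10 of 13 in ref2-1, beside 4.71% and 4.26% of all tested genes.

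**Figure D5:**
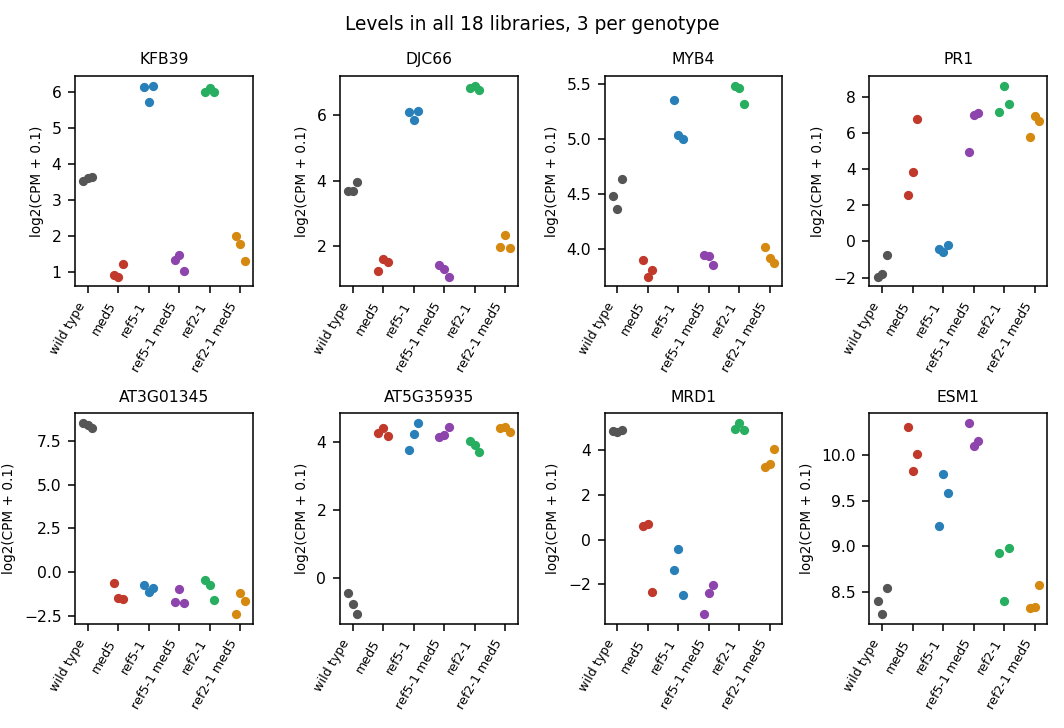
Levels as log2(CPM + 0.1) of 8 genes in all 18 libraries, 3 per genotype (horizontal axis, colour). KFB39, DJC66 and MYB4 are lowest in the 3 genotypes without MED5 and higher in ref5-1 and ref2-1 than in wild type, while AT3G01345 is high in wild type alone and AT5G35935 is low there alone.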

How the data were processed

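Per the labels, 18 poly(A)-selected libraries of a stranded kit were sequenced. The values the authors deposited are raw counts of reads for each gene and library, not normalized. The submitters' processing notes name Trimmomatic, TopHat2 2.1.0, HTSeq 0.6.1, edgeR and the TAIR10 build. The strand setting of the counting is not given in the sources used here. Of 33602 gene IDs and 5 summary lines, the summary lines stayed out of all tests. In the 6 libraries compared, reads with several alignments were 4.72% to 6.43%, reads in no feature 0.775% to 1.00% and ambiguous reads 0.773% to 1.37%. Genes with near-identical copies, such as CYP79F1 and CYP79F2, therefore have uncertain counts.

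Counts were tested in edgeR 4.0.16 (R 4.3.3) with TMM scaling, filterByExpr on the genotypes (19897 genes kept) and a robust quasi-likelihood fit of all 18 libraries with 1 coefficient per genotype. Adjustment was by Benjamini-Hochberg over the whole table, and an adjusted p under 0.05 made a call. P-values set the change against the spread between libraries of a genotype, estimated over all 18 libraries. Standard errors come from the quasi-likelihood F statistic, and CPM use TMM-scaled library sizes. At the lowest depth a CPM of 1 equals about 21.39 counts. DESeq2 1.42.0, other scaling and filters, a replicate block and fits without single libraries were alternatives. The method was also run on counts simulated with the spread it had fitted itself, which cannot test its dependence on single libraries.

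The comparison, the 27 gene lists (377 members) and the rule for named genes were chosen with earlier results of these data known. The rule takes MED5A, MED5B and their called neighbours. It adds the 12 genes with the highest and the 12 with the lowest fold among calls whose genotypes did not overlap and whose mean in the higher genotype reached 5 CPM. It also adds the 6 smallest adjusted p-values in each direction and up to 4 called members per list. Other genes with values in the text are list members, or were chosen after their values were seen. A TAIR10.1 gene table gave names and gene order for 32835 IDs, and no coordinates are given.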

Additional observations from a re-analysis of the deposited data

Results flagged for a closer look

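A called difference between the effect of MED5 loss in a mutant background and in the otherwise wild-type plant (edgeR, adjusted p under 0.05) marked the following genes among the named genes and list members. Values are log2 differences, the effect in the mutant background minus the effect in med5 against wild type. In both backgrounds the difference was negative for KFB39 (-2.12 in ref5-1, -1.71 in ref2-1), DJC66 (-2.45 and -2.41) and J11 (-1.30 and -1.09), and positive for LHY, a clock gene (0.78 and 0.61), and AT3G55240 (1.09 and 0.93). AT3G01345 (9.30 and 8.78) and AT5G35935 (-5.22 and -4.78) also differed in both. For these loci and for AT3G55240, the wild-type libraries stood apart from those of every mutant genotype.

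In ref2-1 alone the difference was called for MRD1 (3.32), AT1G64380 (-1.62), PR1 (-8.61), AT2G46630 (-0.68), ESM1 (-2.04), 4CL2 (0.82) and MYB4 (-0.81). Of list members without a call in med5 it was called for the monolignol dehydrogenase gene CAD4 (0.60), the sinapate glucosyltransferase gene UGT84A2 (-0.97), the hydroxycinnamaldehyde dehydrogenase gene ALDH2C4 (-0.61), the orphan gene QQS (-3.44) and the auxin conjugase gene GH3.5 (1.33). QQS ran from 5.197 to 8.25 CPM in wild type and from 5.92 to 10.3 CPM in med5, and from 35.9 to 53.4 CPM in ref2-1. The PR1 difference was reached with 143 to 397 CPM in ref2-1 and 56.2 to 123 CPM in ref2-1 med5. No cause was tested.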

How the results depend on the processing

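MED5A (log2 fold change -0.71 to -0.59) and MED5B (-1.92 to -1.84) kept their call when any single library of the pair was left out. They also kept it under every other alternative. RLE scaling and both filters kept the counts of calls, shared calls and differences within 1.5 times. DESeq2 called 278 genes higher and 216 lower, 310 and 159 shared with ref5-1 and ref2-1, and 125 and 595 differences of effect. With only the genotypes compared in the fit, 60 calls were shared with ref5-1, 10 genes differed in effect there, and 91 of the 148 med5 calls were also made with all 18 libraries. Without both wild-type replicate 3 and med5 replicate 3, chosen after seeing the data, there were 33 genes higher, 36 lower, 44 and 41 shared and 65 differences in ref2-1. Leaving out 1 library of the genotypes compared gave 15 to 86 genes higher and 37 to 98 lower. It gave 37 to 117 and 32 to 74 shared calls, and 10 to 33 and 38 to 475 differences. For med5 against wild type, leaving out 1 library of another genotype gave 116 calls (ref2-1 med5 replicate 1) to 229 calls (ref5-1 replicate 1). The cause was not tested.

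Of 429 alternative fits of the other 33 named genes, 343 kept the call, 86 lost it with the direction kept and 0 reversed, and 18 of these genes kept their call in every fit. With only the 6 compared libraries in the fit, PAL4, PR1, PCC1, CYP79F2, IAA5, GDPD1, AT1G62510 and AT1G68600 lost the call. So did AT4G22517, AT3G55290 and the genes AT4G15660 to AT4G15700 (edgeR adjusted p = 0.0655 to 0.244 over all of these). Of 9 list counts above 0, 28 of 117 alternative values moved by over 1.5 times. Depth limits genes near 0 CPM, where 1 CPM is about 21.39 counts.

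With the replicate number as a block, 80 genes were higher and 102 lower, 143 of them also called without it, 115 and 81 were shared with the other backgrounds, and 21 and 297 differed in effect. Whether the numbers mark a pairing cannot be told from these values. Deviations from the genotype means correlated between same-numbered wild-type and med5 libraries with r of 0.26, -0.19 and 0.28. Wild-type replicate 2 correlated best with med5 replicate 1 (0.31). With 3 libraries per genotype, deviations from a mean are not independent, so these r cannot decide it.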

Other observations

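Further groups were chosen after their values were seen and are given as values. Of 20 genes of the phosphate starvation response 16 were tested, 4 were called lower and 1 higher (0.442% and 0.337% of all tested genes were), and the median log2 fold change was -0.34. PS2, a phosphatase gene induced by phosphate starvation, stood at 7.49, 1.91 and 3.53 CPM in wild type and at 0.852, 0.545 and 0.638 CPM in med5 (-2.65 ± 0.42, edgeR adjusted p = 0.00398). PAP17, a purple acid phosphatase gene, fell from 30.1, 18.7 and 21.96 CPM to 11.7, 10.1 and 10.99 CPM (-1.11 ± 0.20, edgeR adjusted p = 0.0141), with its call lost without wild-type replicate 1 or any med5 replicate (adjusted p = 0.0507 to 0.0723). GDPD1, a glycerophosphodiesterase gene, stood at 16.3, 7.24 and 9.29 CPM against 3.03, 3.56 and 4.76 CPM (-1.54 ± 0.30, edgeR adjusted p = 0.0276), and lost its call without the same 4 libraries (adjusted p = 0.0585 to 0.135). AT5G03545 was also lower (-2.07 ± 0.40, edgeR adjusted p = 0.0172), again lost without them (adjusted p = 0.0527 to 0.101). PHO1, a phosphate exporter gene, was higher, from 23.8, 26.8 and 23.1 CPM to 36.0, 35.3 and 35.7 CPM (0.54 ± 0.11, edgeR adjusted p = 0.0204), which was lost without wild-type replicate 1 or 3 or med5 replicate 1 or 3 (adjusted p = 0.0783 to 0.115). PS2 kept its call in all 6 fits that left out a library. Wild-type replicate 1 was the highest library for PS2, PAP17 and GDPD1.

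A tandem block of 5 genes annotated to the thioredoxin superfamily, AT4G15660 to AT4G15700, was called higher throughout, where 0.337% of all tested genes were. AT4G15680 stood at 4.58, 6.90 and 5.42 CPM in wild type and at 11.3, 9.85 and 15.6 CPM in med5 (1.11 ± 0.19, edgeR adjusted p = 0.00578), and the others changed by 1.48 (AT4G15660), 1.38 (AT4G15670), 1.35 (AT4G15690) and 1.13 (AT4G15700). The copies are alike in sequence, so reads may be split between them and the 5 are not independent. Each call was lost without wild-type replicate 1 (adjusted p = 0.0643 for AT4G15680), and those of the other 4 also without wild-type replicate 3 or med5 replicate 3. On loss of MED5, 1 of the 5 was called higher in ref5-1 (6.09% of all tested genes) and 0 in ref2-1 (4.65%).

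Of 6 genes of the karrikin pathway 3 were called higher, where 0.337% of all tested genes were: KUF1 (0.86 ± 0.17, edgeR adjusted p = 0.0232), SMAX1 (0.50 ± 0.12, edgeR adjusted p = 0.0491) and its relative SMXL2 (0.60 ± 0.12, edgeR adjusted p = 0.0225). KUF1 lost its call in every fit without a library of the pair, except that without wild-type replicate 3 (adjusted p = 0.0595 to 0.144). SMAX1 lost it without wild-type replicate 1 or 2 or med5 replicate 2 or 3 (0.112 to 0.208). SMXL2 lost it without wild-type replicate 1 or 2 or med5 replicate 2 (0.0762 to 0.115). On loss of MED5 in ref5-1, 2 of the 6 were called higher and 1 lower (6.09% and 4.71% of all tested genes). In ref2-1 edgeR called 0 (4.65% higher and 4.26% lower over all tested genes).

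Of 10 nitrogen assimilation genes 3 were called higher, against the same 0.337%, namely the nitrate reductase gene NIA2, at 468, 555 and 535 CPM in wild type and 839, 752 and 943 CPM in med5 (0.70 ± 0.14, edgeR adjusted p = 0.0227), the glutamate synthase gene GLT1 (0.41 ± 0.091, edgeR adjusted p = 0.0395) and the glutamine synthetase gene GLN1;4 (0.88 ± 0.19, edgeR adjusted p = 0.0316). The call of GLT1 was lost whichever library of the pair was left out (adjusted p = 0.0798 to 0.197). That of NIA2 held only without med5 replicate 2 (otherwise 0.0568 to 0.148), and that of GLN1;4 was lost without wild-type replicate 1 or 2 or med5 replicate 2 or 3 (0.0720 to 0.170). PIN7, an auxin efflux carrier gene, rose from 135, 147 and 138 CPM to 209, 241 and 202 CPM (0.63 ± 0.096, edgeR adjusted p = 0.00227), and IAGLU, a glucosyltransferase gene for indole-3-acetate, from 41.7, 43.5 and 48.7 CPM to 65.5, 70.7 and 71.4 CPM (0.63 ± 0.10, edgeR adjusted p = 0.00365). PIN7 and IAGLU were also called higher in both other backgrounds.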
